A study of Homo sapiens with 9 samples.

Results

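The genes of cholesterol and fatty acid synthesis were followed in HEK293, a human embryonic kidney cell line, after transfection with plasmids for the RNA editing enzyme ADARB1. The list named 31 genes by symbol, of which 30 were matched to Ensembl identifiers in the table of 54562 genes. All 30 were above a mean of 1 FPKM and were tested among 13801 genes. ACACA, the cytosolic acetyl-CoA carboxylase, was not analysed here. The empty vector group (EV) received the plasmid without insert. The Short group received the cDNA of the ADARB1 isoform that skips the *Alu* exon, and the Long group the cDNA of the isoform that includes it. Transfection was transient, with a lipid reagent, in medium with serum, and polyA RNA was collected 48 hours later. Each group had 3 libraries, 1 from each of 3 cell passages, and the replicate number of the labels was taken as the passage. Each passage was 1 culture with 3 transfections, 1 for each plasmid, so no plasmid was repeated within a passage. The p-values between plasmids thus measure how evenly a difference repeated over the 3 passages. Those between passages measure how evenly it repeated over the 3 plasmids. Neither measures a spread between independent lines.

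Cells make cholesterol from acetyl-CoA in a chain of enzymes that runs through mevalonate, farnesyl diphosphate and squalene. Most of these genes, and several of fatty acid synthesis and desaturation, are targets of the sterol regulatory element binding proteins, which SREBF1 and SREBF2 encode. SCAP escorts these factors out of the endoplasmic reticulum when membrane sterol is low, and the INSIG proteins hold SCAP back when sterol is high. INSIG1 is itself a target of the factors, so its mRNA is widely read as a gauge of the pathway, whereas INSIG2 is less tied to sterol. STARD4 carries sterol between membranes.

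The promoters of 4 members are shown because differences described below concern these genes: SREBF2, INSIG1 and HMGCS1 between passages, and STARD4 and INSIG1 between plasmids. Other members with such differences are not shown, among them IDI1 and INSIG2, so the display does not stand for all of them. They were copied from RefSeq on GRCh38.p14 and run from 250 bases before the annotated start to 50 bases from it, on the gene's own strand. Capitals mark the core TCACNCCAC of the sterol regulatory element, the palindrome TCACGTGA and the box CCAAT, searched on both strands, so that CCAAT on the other strand reads ATTGG. SREBF2 lies at chr22:41832855-41833154 on the plus strand, INSIG1 at chr7:155297628-155297927 on the plus strand, HMGCS1 at chr5:43313363-43313662 on the minus strand and STARD4 at chr5:111512486-111512785 on the minus strand.
SREBF2: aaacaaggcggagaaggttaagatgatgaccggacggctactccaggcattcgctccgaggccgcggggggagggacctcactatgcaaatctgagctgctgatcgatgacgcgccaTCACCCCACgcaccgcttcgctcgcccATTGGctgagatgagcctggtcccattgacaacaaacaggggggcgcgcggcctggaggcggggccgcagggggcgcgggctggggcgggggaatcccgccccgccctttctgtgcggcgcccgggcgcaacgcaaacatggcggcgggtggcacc
INSIG1: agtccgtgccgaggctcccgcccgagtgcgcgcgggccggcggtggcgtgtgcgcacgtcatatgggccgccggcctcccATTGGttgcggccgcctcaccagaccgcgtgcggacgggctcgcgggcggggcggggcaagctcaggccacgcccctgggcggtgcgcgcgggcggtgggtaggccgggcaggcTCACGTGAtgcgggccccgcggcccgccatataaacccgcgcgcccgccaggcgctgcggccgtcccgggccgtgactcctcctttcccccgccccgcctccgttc
HMGCS1: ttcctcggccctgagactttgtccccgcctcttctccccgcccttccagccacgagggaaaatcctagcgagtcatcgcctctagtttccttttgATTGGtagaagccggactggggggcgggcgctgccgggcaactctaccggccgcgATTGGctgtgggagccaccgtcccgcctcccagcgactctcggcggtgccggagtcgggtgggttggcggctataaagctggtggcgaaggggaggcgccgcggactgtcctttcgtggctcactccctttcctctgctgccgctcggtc
STARD4: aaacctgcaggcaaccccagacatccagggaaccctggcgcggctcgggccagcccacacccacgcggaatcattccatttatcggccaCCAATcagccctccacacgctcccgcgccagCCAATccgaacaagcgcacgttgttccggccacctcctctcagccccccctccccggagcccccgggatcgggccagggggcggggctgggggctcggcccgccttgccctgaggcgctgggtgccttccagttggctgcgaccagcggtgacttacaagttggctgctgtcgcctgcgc
The window of SREBF2 held the core TCACCCCAC from base -133 to -125, counted from the start as base 0, and a CCAAT box from -106 to -102. The window of INSIG1 held TCACGTGA from -56 to -49 and a CCAAT box from -170 to -166. HMGCS1 had a pair of CCAAT boxes, from -155 to -151 and from -100 to -96, and so had STARD4, from -161 to -157 and from -130 to -126. Among windows not shown, another of HMGCS1 held no CCAAT box, and those of INSIG2 held no core, palindrome or CCAAT box. IDI1 held CCAAT boxes in some windows, without the core or the palindrome. The search covered 39 windows for 27 listed genes, ACACA included. Windows of FDFT1, SQLE, ACAT2 and FASN were not searched, so the counts do not cover these genes. The core was found in 1 of the 27 genes (3.70%, against 1.39% of the 27305 genes searched), and the palindrome in 1 (3.70%, against 1.18%). CCAAT was found in 19 of 27 (70.4%, against 39.7%), and the GC box GGGCGG in 26 of 27 (96.3%, against 48.3%). The 27305 genes were not limited to the genes tested, and whether expressed genes have other shares was not tested. These are letter matches in short windows and not binding sites.

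Expression is given in FPKM, fragments scaled to gene length and to the mapped fragments of the library, so levels can be set side by side between genes. In the EV libraries the median member stood at 55.0 FPKM, against 11.6 FPKM for the genes tested. Of the 30 members, 28 were above the median of the genes tested and 15 were in its upper decile. The order of the levels was mostly unresolved, since among the 29 neighbours in it only 7 had all 3 EV libraries of the higher gene above those of the lower.

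**Figure D1:**
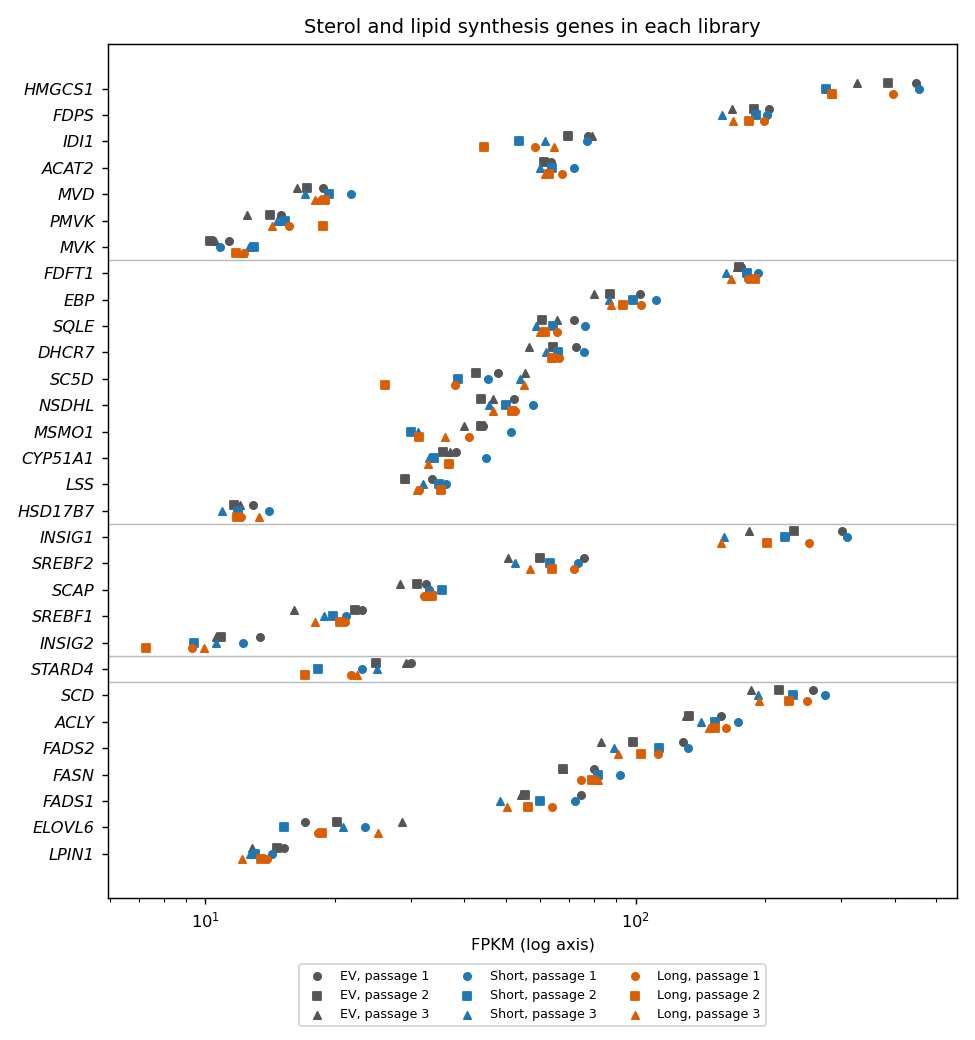
FPKM (log axis) of the 30 genes in each of the 9 libraries, by role (horizontal lines) and ordered by the EV mean, with colours for the plasmid and symbols for the passage. HMGCS1 was the most and MVK the least abundant in EV cells, and for INSIG1 the 3 passages lie farther apart than the 3 plasmids.

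Among the enzymes that lead to farnesyl diphosphate, HMGCS1, which makes HMG-CoA, was the highest member in EV cells, at 448, 385 and 327 FPKM in passages 1, 2 and 3. Its Short libraries read 455, 276 and 279 FPKM and its Long libraries 397, 285 and 287 FPKM. Passage 1 was thus above passages 2 and 3 with each plasmid. MVK, mevalonate kinase, was the lowest, at 11.3, 10.2 and 10.6 FPKM in EV, 10.8, 13.0 and 12.7 FPKM in Short and 12.3, 11.8 and 12.2 FPKM in Long. The range of MVK was narrow and its EV and Short libraries overlapped. ACAT2, PMVK, MVD, IDI1 and FDPS, the remaining enzymes of this stretch, had EV means from 13.9 to 187 FPKM.

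Among the enzymes from squalene to cholesterol, FDFT1, squalene synthase, had the highest EV level, at 175, 173 and 172 FPKM, with 192, 181 and 162 FPKM in Short and 183, 189 and 166 FPKM in Long. The EV libraries of FDFT1 were nearly equal across passages. HSD17B7, a sterol 3-keto reductase, had the lowest, at 12.9, 11.6 and 12.0 FPKM in EV, 14.0, 11.9 and 10.9 FPKM in Short and 12.1, 11.8 and 13.3 FPKM in Long. The values of the groups interleaved. The EV means of SQLE, LSS, CYP51A1, MSMO1, NSDHL, EBP, SC5D and DHCR7 lay between 30.6 and 89.8 FPKM.

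Among the fatty acid genes, SCD, the stearoyl-CoA desaturase, was the highest, at 258, 215 and 186 FPKM in EV, 276, 232 and 192 FPKM in Short and 251, 228 and 193 FPKM in Long. Its passages kept the same order with every plasmid, passage 1 highest and passage 3 lowest. LPIN1, a phosphatidate phosphatase of glycerolipid synthesis, was the lowest, at 15.2, 14.6 and 12.9 FPKM in EV, 14.3, 13.1 and 12.7 FPKM in Short and 13.9, 13.5 and 12.1 FPKM in Long. ACLY, FASN, ELOVL6, FADS1 and FADS2 had EV means from 21.98 to 140 FPKM. The regulators and STARD4 are described with the comparisons that concern them.

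ADARB1 was 7.66 to 8.61 FPKM in EV, 1889 to 4145 FPKM in Short and 1695 to 3449 FPKM in Long, which separated EV from both plasmids. It differed by passage, at 1889, 4145 and 2735 FPKM in passages 1, 2 and 3 of Short and 1695, 3449 and 2080 FPKM in Long. Depth was not given. The steps between the lowest FPKM values put it at 0.997 to 1.20 times that of EV replicate 1, with 0.997 to 1.00 in passage 1 and 1.12 to 1.20 in passage 3. This is a rough estimate, since only 22.5% to 46.1% of the lowest values lay at the ratio taken. Of the HEK293 markers, 6 were measured, at mean levels from 2.47 to 191 FPKM, and their sum was 457 to 488 FPKM in EV, 486 to 553 in Short and 511 to 534 in Long. The hepatocyte, blood and adipocyte markers were at or below 0.866 FPKM, with TTR, ADIPOQ and LEP at 0, and of the fibroblast markers only COL1A1 was above 1 FPKM (9.10 to 12.9), while COL1A2 was at most 0.0684.

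The first comparison asked what the Short isoform did to these genes. None of the 30 members passed in Short against EV with limma (adjusted p under 0.05), and 0.0362% of the genes tested did in either direction. At an unadjusted p under 0.05 there were 8 members (26.7%), 5 higher and 3 lower, against 22.03% of the genes tested. The median member was 0.02 on the log2(FPKM + 1) scale, against 0.04 for the genes tested. The largest differences were in STARD4, FASN and IDI1. STARD4 read 30.03, 24.9 and 29.2 FPKM in EV and 23.1, 18.3 and 25.0 FPKM in Short, with the highest Short library level with the lowest EV library (log2 fold change -0.34, SE 0.06, adjusted p = 0.110). FASN, fatty acid synthase, read 79.8, 67.6 and 67.9 FPKM in EV and 92.0, 81.8 and 80.9 FPKM in Short, and the groups did not overlap (log2 fold change 0.24, SE 0.07, adjusted p = 0.116). IDI1, isopentenyl diphosphate isomerase, read 77.3, 69.4 and 79.3 FPKM in EV and 76.98, 53.6 and 61.7 FPKM in Short, with passage 1 nearly equal (log2 fold change -0.24, SE 0.09, adjusted p = 0.155). None of these differences passed the threshold, and after a correction for GC content STARD4 was at -0.15, FASN at 0.09 and IDI1 at -0.19.

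In Long against EV, 4 members were lower and 0 higher (limma, adjusted p under 0.05): STARD4, IDI1, INSIG2 and INSIG1. Among the genes tested 6.33% were lower and 1.99% higher. Rescaling to equal sums (TPM) gave 6 members lower and 0 higher, where 1217 of the 13801 genes tested were lower and 57 higher. Scaling by the median ratio gave 5 lower and 0 higher, where 1131 of the genes tested were lower and 112 higher. Of all calls the share that was lower went from 76.0% to 95.5% and 91.0%. The median member was at 0.01 (against 0.04 for the genes tested). The genes that fell were a sterol carrier, an isomerase of isoprenoid synthesis and both proteins that retain SCAP. EV was above Long in every library for 3 of the 30 members (IDI1, INSIG2 and STARD4), against 3.14% of the genes tested.

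STARD4 (chr5:110831731-110848288 on GRCh37, minus strand) was 21.8, 17.0 and 22.6 FPKM in Long, each below all EV libraries (log2 fold change -0.44, SE 0.06, adjusted p = 0.00884). IDI1 (chr10:1085092-1095059, minus strand) was 58.2, 44.5 and 64.8 FPKM in Long and again below every EV library (-0.44, SE 0.09, adjusted p = 0.0159). Both genes were lowest in passage 2 with each plasmid. INSIG2 (chr2:118846028-118868573, plus strand) was 13.4, 10.9 and 10.6 FPKM in EV, 12.3, 9.42 and 10.6 FPKM in Short and 9.32, 7.29 and 9.94 FPKM in Long (Long against EV -0.36, SE 0.09, adjusted p = 0.0363). The difference of INSIG2 was -0.52 and -0.57 as a log2 ratio in passages 1 and 2 and -0.09 in passage 3. INSIG1 (chr7:155089486-155101945, plus strand) was 302, 233 and 183 FPKM in EV, 310, 222 and 160 FPKM in Short and 252, 202 and 158 FPKM in Long (Long against EV -0.22, SE 0.05, adjusted p = 0.0319). Its groups overlapped widely, since the passages differed more than the plasmids, but the log2 ratio of Long to EV was -0.26, -0.21 and -0.21 in the 3 passages.

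**Figure D2:**
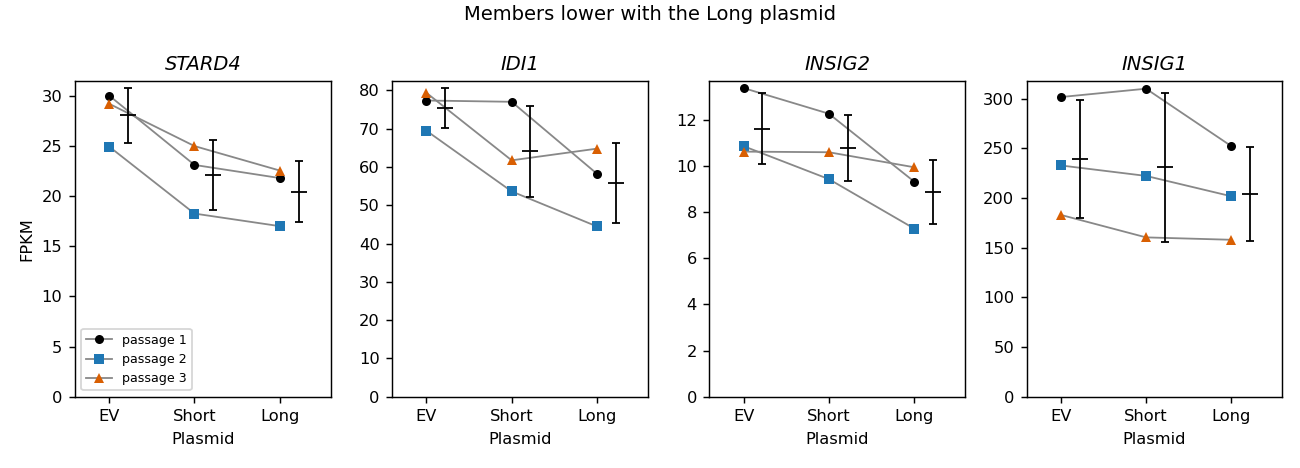
FPKM of STARD4, IDI1, INSIG2 and INSIG1 with each plasmid. Points joined by lines are libraries of 1 passage and bars are mean ± SD (n = 3). For STARD4, IDI1 and INSIG2 each Long library lies below each EV library, whereas the passages of INSIG1 stand at 3 separate heights, with Long below EV in each.

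The calls depended on the pairing by passage and on single passages. Without the replicate block 0 members and 2 of all genes passed, with adjusted p = 0.637 for STARD4, IDI1 and INSIG2 and 0.832 for INSIG1. With replicate 1 or replicate 2 left out 0 members passed, where 2 and 100 of all genes did. With replicate 3 left out 4 members passed, where 1031 of all genes did. INSIG1 was not among them (adjusted p = 0.0524), so these were not the same 4 as with all replicates. The neighbours of the called members in size were SC5D, a sterol desaturase, and HMGCS1. SC5D was -0.34 (SE 0.11, adjusted p = 0.0790) and HMGCS1 -0.27 (SE 0.08, adjusted p = 0.0583) in Long against EV, and neither passed.

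The members that fell with Long had transcripts of low GC content, 34.4% for STARD4, 36.3% for INSIG2, 41.1% for IDI1 and 44.8% for INSIG1, with a median of 38.7% against 51.0% for the 26 members not called. Members under 45% GC had a median of -0.24 in Long against EV (11 genes, 9 of them negative), and those at or above 45% GC one of 0.06 (19 genes, 5 negative). The genes tested moved the same way, with medians of -0.07 and 0.08. The split was not particular to Long. In Short against EV the medians were -0.10 and 0.10 for the members (again 9 and 5 negative). For the genes tested they were -0.06 and 0.10. After a correction of each library for GC content, with the replicate block, 0 members passed and 1 of all genes did. INSIG1 and IDI1 were then at -0.26 and -0.39, with an adjusted p of 0.0540 for each, and STARD4 and INSIG2 were at -0.13 and -0.12 (adjusted p = 0.227 and 0.377). Where the GC dependence came from was not tested.

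Between the isoforms, in Long against Short, 0 members passed with limma, and 0.00725% of the genes tested did in either direction. At an unadjusted p under 0.05, 4 members were lower in Long (13.3%, against 5.93% of the genes tested) and 0 higher. Of the 30 members 24 had negative values (80.0%, against 58.8% of the genes tested), with a median of -0.05 against -0.02 for the genes tested. This lean depended on the passage. The median was -0.009 without replicate 1 (0.009 for the genes tested), -0.06 without replicate 2 (-0.03) and -0.09 without replicate 3 (-0.04). The ratios of Long to Short were mostly negative in passage 1 and mostly positive in passage 3. The largest were INSIG2 (-0.26, SE 0.09, adjusted p = 0.556), SC5D (-0.26, SE 0.11, adjusted p = 0.639) and IDI1 (-0.20, SE 0.09, adjusted p = 0.659). SC5D read 47.9, 42.6 and 55.2 FPKM in EV, 45.3, 38.6 and 53.9 FPKM in Short and 38.0, 26.1 and 55.0 FPKM in Long. The Long library of passage 2 was the lowest of SC5D and that of passage 3 level with the others. Short and Long were compared with the same EV libraries, so their differences from EV are not independent.

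The same libraries were then compared between passages, over the plasmids. In passage 3 against passage 1, 15 of the 30 members were lower and 1 higher (limma, adjusted p under 0.05), where 21.6% of the genes tested were lower and 14.8% higher. The median member was -0.20, against -0.05 for the genes tested. Rescaling to equal sums gave 9 members lower and 2 higher, where 1810 of the 13801 genes tested were lower and 3011 higher. The median ratio gave 11 members lower and 1 higher, where 2153 of the genes tested were lower and 2689 higher. Of all genes called, 59.3% were lower with the deposited values, 37.5% after rescaling to equal sums and 44.5% with the median ratio. Of the members 18 had all 3 libraries of passage 1 above those of passage 3 (28.5% of the genes tested had), and SC5D alone was the other way round (17.5%). In 17 members passage 1 was the highest with each of the 3 plasmids (56.7%, against 14.2% of the genes tested), and in 14 passage 3 was the lowest with each (46.7%, against 27.0%).

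**Figure D3:**
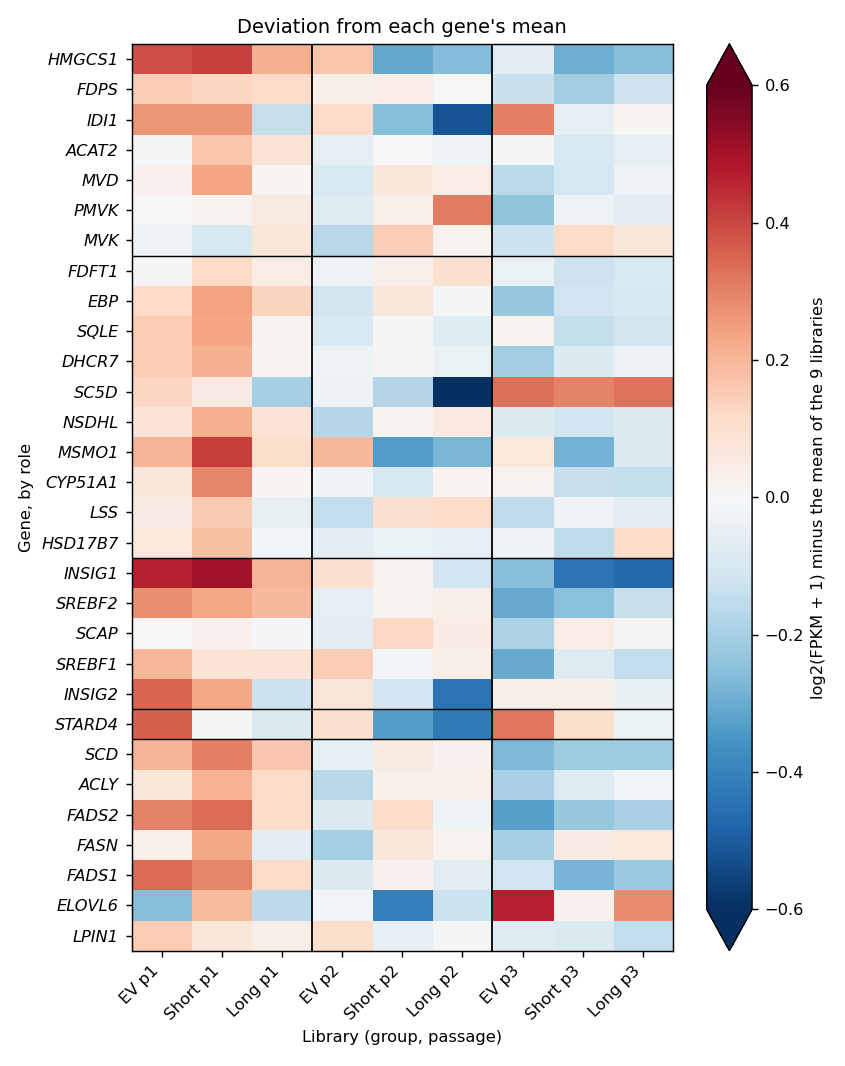
Log2(FPKM + 1) of each gene minus its mean over the 9 libraries (red above, blue below), with the libraries grouped by passage (p1 to p3) and the genes by role. The left block is mostly red and the right block mostly blue, while SC5D and ELOVL6 are red in the right block.

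Of the regulators, 3 of 5 were lower in passage 3 than in passage 1. INSIG1 had the largest difference of any member: the mean was 288 ± 31.2 FPKM in passage 1, 219 ± 15.8 in passage 2 and 167 ± 13.8 in passage 3 (SD, n = 3), and the log2 fold change was -0.78 (SE 0.05, adjusted p = 4.64e-05). Its log2 ratio of passage 3 to passage 1 was -0.72 in EV, -0.95 in Short and -0.68 in Long. SREBF2 (chr22:42229109-42303310 on GRCh37, plus strand), which mainly serves the cholesterol genes, read 75.9, 59.9 and 50.4 FPKM in passages 1, 2 and 3 of EV, 73.6, 63.2 and 52.3 FPKM in Short and 71.7, 64.0 and 56.7 FPKM in Long (-0.47, adjusted p = 0.000426). No library of one passage reached into the range of another for SREBF2. SREBF1, which mainly serves the fatty acid genes, read 23.1, 22.3 and 16.1 FPKM in EV, 21.3, 19.8 and 18.9 FPKM in Short and 21.1, 20.5 and 18.0 FPKM in Long (-0.30, adjusted p = 0.0162). For SREBF1 the lowest library of each plasmid was that of passage 3, while passages 1 and 2 overlapped. SCAP (-0.05, adjusted p = 0.522) and INSIG2 (-0.14, adjusted p = 0.254) did not pass. After the GC correction SREBF1 lost its call (-0.17, adjusted p = 0.138) and INSIG2 gained one (-0.45, adjusted p = 0.00195). The sterol carrier STARD4 was at 0.04 (adjusted p = 0.661), and at -0.34 (adjusted p = 0.00286) after the GC correction.

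Of the 7 enzymes from acetyl-CoA to farnesyl diphosphate, HMGCS1 and FDPS fell. HMGCS1 (chr5:43287572-43313614 on GRCh37, minus strand) had means of 433 ± 31.8, 316 ± 60.2 and 298 ± 25.96 FPKM in passages 1, 2 and 3 (SD, n = 3), with a log2 fold change of -0.54 in passage 3 (SE 0.08, adjusted p = 0.000698). FDPS, which makes farnesyl diphosphate, read 204, 189 and 168 FPKM in passages 1, 2 and 3 of EV, 201, 190 and 159 FPKM in Short and 199, 183 and 169 FPKM in Long (-0.29, adjusted p = 0.00102). The 3 passages of FDPS did not overlap, whereas its plasmids were level within a passage. IDI1, which was lower with Long, was at -0.04 (adjusted p = 0.739) in passage 3 against passage 1. Of the 10 enzymes from squalene to cholesterol 5 fell, MSMO1, EBP, DHCR7, NSDHL and SQLE, by 0.21 to 0.34 on the log2 scale. EBP, a sterol isomerase, read 102, 87.0 and 80.2 FPKM in EV, 111, 98.7 and 86.7 FPKM in Short and 103, 93.3 and 87.8 FPKM in Long, with passage 1 above both others throughout (-0.31, adjusted p = 0.00111). SC5D rose, by 0.32 (adjusted p = 0.0363). After the GC correction MSMO1 and EBP kept their calls, while DHCR7 (-0.10, adjusted p = 0.158), NSDHL (-0.09, adjusted p = 0.224), SQLE (-0.12, adjusted p = 0.108) and SC5D (0.04, adjusted p = 0.753) lost theirs. CYP51A1, the lanosterol demethylase, gained one (-0.30, adjusted p = 0.0124), as did ACAT2 among the enzymes before squalene (-0.16, adjusted p = 0.0309).

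Of the 7 fatty acid and glycerolipid genes 5 fell. FADS2, the delta-6 desaturase, read 129, 98.4 and 83.1 FPKM in passages 1, 2 and 3 of EV, 132, 113 and 89.1 FPKM in Short and 113, 103 and 91.1 FPKM in Long, so that passage 1 was the highest and passage 3 the lowest with each plasmid (-0.50, SE 0.06, adjusted p = 0.000504). FADS1, the delta-5 desaturase, read 74.7, 55.4 and 54.1 FPKM in EV, 72.4, 59.9 and 48.4 FPKM in Short and 63.9, 56.1 and 50.3 FPKM in Long (-0.46, adjusted p = 0.00077). SCD, given above, was -0.45 (adjusted p = 0.000183), and its passages did not overlap. ACLY (-0.23), which makes cytosolic acetyl-CoA from citrate, and LPIN1 (-0.19) fell as well, and FASN was at -0.10 (adjusted p = 0.315). The 3 desaturases kept their calls after the GC correction, while ACLY (-0.09, adjusted p = 0.0618) and LPIN1 (-0.08, adjusted p = 0.281) lost theirs. ELOVL6, a fatty acid elongase, was at 0.33 (adjusted p = 0.0928).

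**Figure D4:**
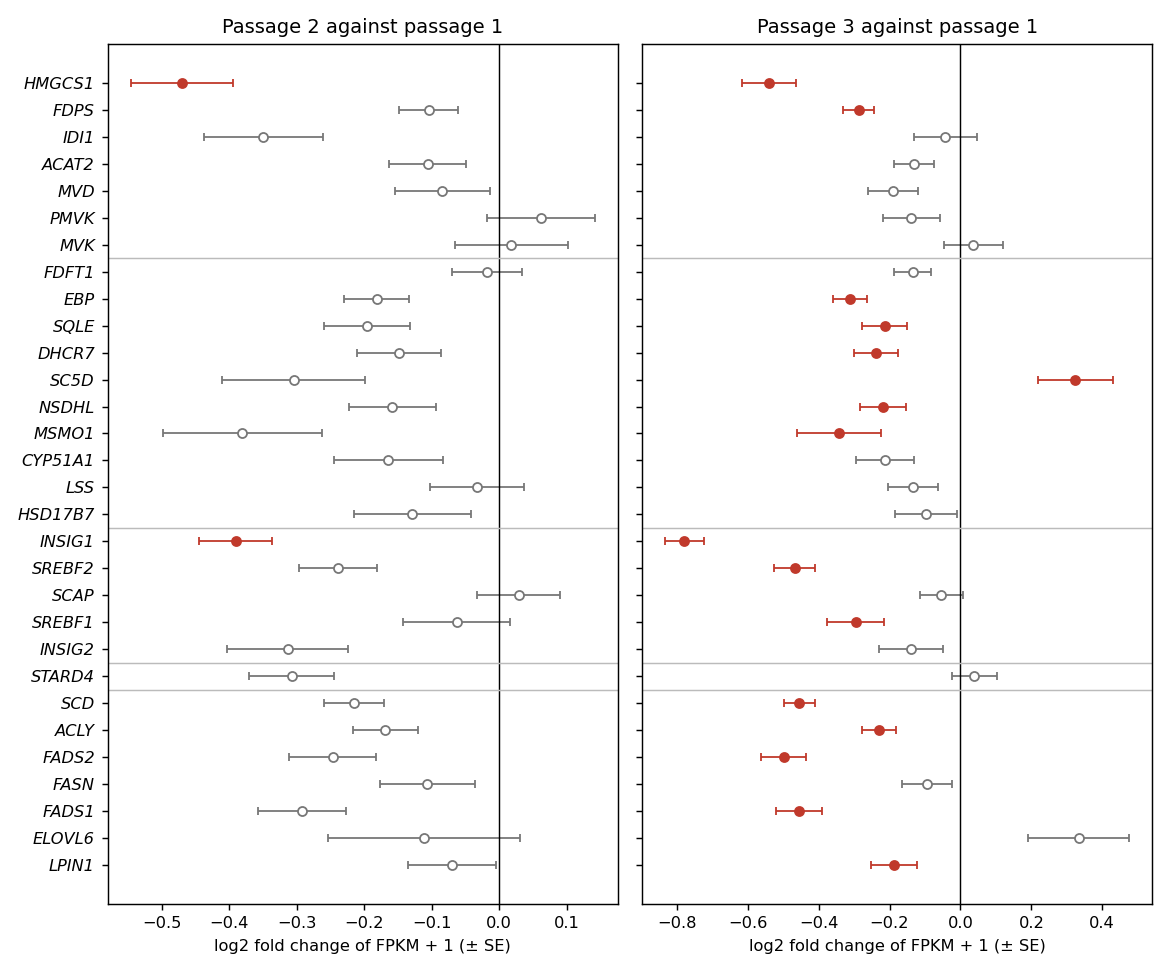
Log2 fold change of FPKM + 1 (point) with its SE (bar) for the 30 genes in passage 2 (left) and passage 3 (right) against passage 1, each adjusted for plasmid, filled red where the adjusted p was under 0.05. INSIG1 and HMGCS1 pass in both, and on the right 15 members are lower and SC5D is higher.

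The count rested in part on which libraries were used: it was 10 in all without the Short libraries and 10 without the Long libraries, and 5 with no filter on low values. After the GC correction 13 members were lower and 0 higher, against 16.04% and 17.1% of the genes tested. Of the 16 members called without it 9 kept the call, 7 lost it and 4 others gained it. HMGCS1 was then at -0.72 and INSIG1 at -0.71, and the low-GC members MSMO1 (-0.60), INSIG2 (-0.45) and STARD4 (-0.34) were below 0 as well. Without the correction the genes tested under 45% GC had a median of 0.11 in passage 3 against passage 1 and those at or above it -0.12. The members had medians of -0.13 and -0.22 in the same classes. The estimate of depth was higher in passage 3, as given above. Of the HEK293 markers NEFM rose (0.45, adjusted p = 0.000585) while KRT8 (-0.21), KRT18 (-0.19) and VIM (-0.17) fell. The sum of the 6 markers was 488 to 553 FPKM in passage 1 and 457 to 511 in passage 3. The part of these in the members' differences was not tested, and passage cannot be told apart from the day of transfection, extraction or library preparation.

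In passage 2 against passage 1, 2 members were lower and 0 higher (limma, adjusted p under 0.05), where 0.203% of the genes tested were lower and 0.0725% higher. These were HMGCS1 (-0.47, SE 0.08, adjusted p = 0.0443) and INSIG1 (-0.39, SE 0.05, adjusted p = 0.0199). MSMO1, a sterol C4 methyl oxidase, was next in size (-0.38, SE 0.12, adjusted p = 0.215). It read 44.1, 43.7 and 39.9 FPKM in EV, 51.2, 29.99 and 31.1 FPKM in Short and 41.1, 31.4 and 36.0 FPKM in Long. In MSMO1 the EV libraries of passages 1 and 2 were level, and the difference lay in the Short and Long libraries. In those libraries ADARB1 was also higher in passage 2 than in passage 1, as given above, and its part was not tested. Of the 30 members 27 were negative, where 60.9% of the genes tested were, and 17 were lower at an unadjusted p under 0.05 (56.7%, against 10.7%). The median was -0.16 against -0.03 for the genes tested. Without the Short libraries, or without the Long libraries, 0 members passed, and so it was with no trend in the variance or no filter on low values.

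In passage 3 against passage 2, 6 members were lower and 4 higher, where 15.0% of the genes tested were lower and 17.2% higher. The median was -0.08, against -0.03. INSIG1 was again lower (-0.39, SE 0.05, adjusted p = 0.000956), as were FADS2 (-0.25), SCD (-0.24), SREBF1 (-0.23), SREBF2 (-0.23) and FDPS (-0.18). SC5D (0.63, SE 0.11, adjusted p = 0.00193), ELOVL6 (0.45, SE 0.14, adjusted p = 0.0367), STARD4 (0.35, SE 0.06, adjusted p = 0.00274) and IDI1 (0.31, SE 0.09, adjusted p = 0.0236) were higher. ELOVL6 read 17.0, 20.2 and 28.7 FPKM in EV, 23.5, 15.2 and 20.9 FPKM in Short and 18.3, 18.7 and 25.2 FPKM in Long. Its passage 3 was the highest in EV and Long but not in Short. The members higher in passage 3 than in passage 2 had GC contents from 34.4% to 41.4%. After the GC correction 4 members were lower and 1 higher, against 11.0% and 12.1% of the genes tested. Of the 10 members called without it INSIG1 and SCD kept the call and 8 lost it, while HMGCS1 (-0.34, adjusted p = 0.00407), INSIG2 (-0.21, adjusted p = 0.0417) and FASN (0.17, adjusted p = 0.0298) gained one. SC5D was then at 0.26 (adjusted p = 0.0564), ELOVL6 at 0.30 (adjusted p = 0.121) and IDI1 at 0.15 (adjusted p = 0.179), and STARD4 changed sign, to -0.08 (adjusted p = 0.289). The comparisons of passages share libraries, so their values are not independent of each other.

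Split by source, passage held a median of 61.9% of a member's sum of squares on the log2 scale, plasmid 14.6% and the rest 21.8%, against 49.8%, 19.9% and 21.0% for the genes tested. Passage outweighed plasmid in 22 of 30 members (73.3%), close to the 70.3% of the genes tested. The share of passage was 95.2% for FDPS, 94.4% for SCD, 93.5% for SREBF2 and 90.02% for INSIG1. For STARD4 plasmid held more (58.3%) than passage (39.3%), and so it was for FASN (57.2% and 13.5%) and SCAP (56.8% and 17.5%).

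Outside the list, 40 further genes of sterol and fatty acid handling were examined, of which 39 were tested, since ABCA1 was at 0.447 to 0.597 FPKM. None passed in Short against EV or in Long against Short with limma, where 6 (15.4%) and 4 (10.3%) were under an unadjusted p of 0.05, against 22.03% and 7.54% of the genes tested. In Long against EV 2 fell (5.13%) and 0 rose, a share below the 6.33% of the genes tested. HSD17B12, a 3-ketoacyl-CoA reductase of fatty acid elongation, was 64.2, 60.3 and 70.0 FPKM in EV and 46.8, 33.5 and 59.8 FPKM in Long, each below all EV libraries (-0.50, SE 0.10, adjusted p = 0.0142). ACSL4, an acyl-CoA synthetase for polyunsaturated fatty acids, was 14.7, 13.2 and 17.9 FPKM in EV and 8.21, 6.95 and 17.5 FPKM in Long, with passage 3 nearly equal (-0.55, SE 0.15, adjusted p = 0.0464). Both have low-GC transcripts, at 38.0% and 35.5%.

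In passage 3 against passage 1, 15 of the 39 further genes were lower (38.5%) and 4 higher (10.3%), where 21.6% and 14.8% of the genes tested were. ACSL4 (0.62) and GPAM (0.47), a glycerol-3-phosphate acyltransferase, were the higher genes with the largest values. ABCG1 (-0.42), a sterol exporter, ACSS2 (-0.42), which makes acetyl-CoA from acetate, LPIN2 (-0.40), of the family of LPIN1, and MID1IP1 (-0.38), a partner of acetyl-CoA carboxylase, were lower. In passage 2 against passage 1 none of the 39 passed, with 8 (20.5%) under an unadjusted p of 0.05, against 14.5% of the genes tested. In passage 3 against passage 2, 7 were higher (17.9%) and 6 lower (15.4%), close to the shares of the genes tested.

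Some members share their locus. FADS1 and FADS2 overlap on opposite strands, and FEN1 (60.7 FPKM) lies within FADS2 on the same strand. ACAT2 overlaps TCP1 (273 FPKM) on the opposite strand. Also on opposite strands, MVK overlaps MMAB (52.2 FPKM), SREBF1 overlaps RAI1 (11.3), CYP51A1 overlaps AKAP9 (8.19) and DHCR7 a noncoding RNA (12.6). The libraries were stranded, but whether strand was used in counting is not given in the sources used here, so the values of these genes are uncertain. The copies HSD17B7P2 and CYP51A1P2 were at 3.70 and 1.22 FPKM. MIR33A and MIR33B, the precursors within introns of SREBF2 and SREBF1, were listed at 0 in the polyA libraries.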

How the data were processed

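Gene expression was measured by RNA-seq of polyA RNA in 9 libraries (EV, Short and Long, 3 each). The authors aligned reads first to Ensembl transcripts, with the remainder aligned to hg19 by TopHat (version 1.4.1), and the submitters' processing notes also name Cufflinks. The values deposited by the authors are FPKM, 1 column for each library. FPKM is divided by the library total, so very abundant transcripts can lower the values of other genes. ADARB1 was at most 4145 FPKM, in passage 2 of Short, where the values of all genes summed to 556722 FPKM. Whether the plasmid transcript lowered other values was not tested. No counts were used, so no intervals for counting error are given.

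Symbols and GRCh37 coordinates came from GENCODE (87.2% of identifiers named), GC content and length from the longest transcript, and promoters from RefSeq. The members and lists were chosen with earlier results of these data known. Log2(FPKM + 1) was fitted with limma (version 3.58.1, lmFit and eBayes with a trend) in R (version 4.3.3) on the 13801 genes whose mean reached 1 FPKM, with group and replicate number as terms. Adjusted p-values follow Benjamini and Hochberg over these genes, with a threshold of 0.05. Comparisons of passages were the replicate terms of this fit. The pairing rests on the study's methods, where each repeat of the transfections used another passage. In the data, the correlations of deviations from the group means were 0.327 to 0.813 for the 9 pairs with the same number and -0.634 to 0.366 for the 18 others. Deviations from a group mean sum to 0, which by itself lowers the correlations between different numbers. EV replicate 1 correlated with replicate 2 of Short and Long at 0.366 and 0.362, and EV replicate 2 at 0.327 and 0.355. The correlations thus do not settle the pairing of EV replicates 1 and 2. Of 200 genes changed by 1.5 (log2) in simulated data, 195 were recovered in Long against EV among 13801 genes, with 10 unchanged genes called. The largest member difference in Long against EV was -0.44, so the simulation does not show how often changes of that size are recovered. Its noise was independent between genes and held no GC-dependent shift between groups, so it does not give the rate of false calls under such a shift. Every listed member was accounted for. Fold changes with SE and adjusted p were given for members called between groups and for the 3 largest of each comparison, and library values for these and for the highest and lowest member of each role by EV mean. HMGCS1 and SC5D in Long against EV, SREBF1, SREBF2, FDPS, EBP, FADS1 and SCD, and the further genes were added for their values. Alternatives were a pseudocount of 0.1, TPM, median ratio scaling, no block, only the libraries compared, no trend, no filter, a minimum of 5 FPKM, each replicate or group left out, and loess corrections (span 0.3) for GC content and length.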

Additional observations from a re-analysis of the deposited data

How the results depend on the processing

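For the 3 members with the largest difference in each comparison and those called between groups, 238 values were computed under alternative settings. Of these, 193 kept direction and side of the threshold, 44 lost the call, 1 gained it (MSMO1 in passage 2 against passage 1 without EV, -0.57, adjusted p = 0.0495) and 0 changed direction. Most of these values belong to members picked for their size, which makes a change of direction less likely. Over all 30 members, the GC correction changed the sign of 8 in Short against EV, 8 in Long against EV and 5 in Long against Short. Between passages it changed the sign of 1 (2 against 1), 5 (3 against 1) and 11 (3 against 2). Of the values printed for passage 3 against passage 2, STARD4 turned from 0.35 to -0.08 with the GC correction. Calls that correction ended or added are given with each comparison. The members called in Long against EV (4) were 0 without the replicate block, 0 with no filter on low values, 0 with the GC correction, 2 without a trend and 0 to 4 with a replicate left out (0 without replicate 1, 0 without replicate 2). Without replicate 3 the 4 were not all the same members, since INSIG1 lost its call. The block, which rests on the pairing by passage, changed no other count of members called between groups. Those in passage 2 against passage 1 (2) were 1 with TPM, 1 with the median ratio, 1 with only these passages, and 0 without a trend, with no filter, without Short or without Long. Those in passage 3 against passage 1 (16) were 5 with no filter, 10 without Short and 10 without Long. Those in passage 3 against passage 2 (10) were 6 without a trend, 0 with no filter, 6 without Short, 5 without Long and 5 with the GC correction. With no filter, the much larger number of genes enters both the adjustment and the trend. The median member in Short against EV was -0.065 with TPM, -0.038 with the median ratio, -0.039 with the length correction and -0.0098 to 0.068 with a replicate left out. It was -0.069 with TPM in Long against EV, -0.12 with TPM in passage 3 against passage 1, and -0.0399 with TPM and -0.0377 with the median ratio in passage 3 against passage 2. For the other changes the cause was not tested. The files give no read counts, so what depth limits could not be put in numbers.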
